A study of Mus musculus with 6 samples.

Results

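Genes of cellular iron handling were described in the hippocampus of wild-type and ORAI1-overexpressing mice, namely the 4 Steap genes (Steap1, Steap2, Steap3 and Steap4), the transferrin receptor gene Tfrc, the transferrin gene Trf, the ferritin genes Fth1 and Ftl1, the ferroportin gene Slc40a1 and the ceruloplasmin gene Cp. They make up 10 of the 54838 genes counted. The genes were chosen by symbol with their measured fold changes between the genotypes in these same libraries already known, so the differences of the 10 genes between genotypes are given as a description, without a test. RNA was sequenced from 6 hippocampi of females aged 7 months, 1 library per mouse, 3 from wild-type and 3 from FVB/NJ-Tg(ORAI1)Ibd mice. The transgene is the coding sequence of human ORAI1, the pore-forming subunit of the store-operated calcium channel, placed in a modified mouse Thy-1.2 cassette, which drives expression in neurons, and introduced by pronuclear injection on the FVB/NJ background. The transgenic mice represent 1 named line, and the labels describe the controls only as wild-type females. A whole hippocampus holds many cell types, so for every gene below a smaller number of cells of a type and less RNA per cell cannot be told apart.

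Iron circulates bound to transferrin, which is taken up with its receptor into endosomes, where ferric iron is reduced to the ferrous form that transporters can carry. Steap proteins are membrane metalloreductases of endosomes and the cell surface. Iron that is not used is stored in the cytosol inside shells of heavy and light ferritin chains, and it leaves cells through ferroportin with the help of ferroxidases such as ceruloplasmin. In the brain, transferrin is made by oligodendrocytes and by the choroid plexus, the epithelium in the ventricles that produces cerebrospinal fluid, while transferrin receptors are abundant on endothelial cells and neurons.

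Several mRNAs of this system carry iron-responsive elements, short hairpins to which the iron regulatory proteins bind when iron is scarce. A hairpin in the 5′ untranslated region holds back translation, and hairpins in the 3′ untranslated region protect the mRNA from decay. The elements found in the 10 genes are shown because their place divides the genes that carry them. Among these genes Tfrc alone has hairpins of the kind that acts on the mRNA level, and the others have the kind that acts on translation. Neither action was measured here. Annotated transcripts (GENCODE M21, GRCm38, C57BL/6J reference) were searched on their sense strand for a C, a stem of 5 bases, the loop CAGTGN and 5 bases that pair with the stem, G–U pairs allowed. Capitals mark the loop, all sequences run 5′ to 3′ along the transcript, and each is 30 bases long.
Fth1, 5′ untranslated region, chr19:9982732-9982761, plus strand: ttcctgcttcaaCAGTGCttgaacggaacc
Ftl1, 5′ untranslated region, chr7:45459778-45459807, minus strand: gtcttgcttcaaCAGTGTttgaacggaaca
Slc40a1, 5′ untranslated region, chr1:45925464-45925493, minus strand: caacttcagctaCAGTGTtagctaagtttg
Tfrc, 3′ untranslated region, chr16:32631219-32631248, plus strand: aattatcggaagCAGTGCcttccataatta
Tfrc, 3′ untranslated region, chr16:32631598-32631627, plus strand: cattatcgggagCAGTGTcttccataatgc
Tfrc, 3′ untranslated region, chr16:32631663-32631692, plus strand: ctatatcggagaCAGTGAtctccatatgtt
Tfrc, 3′ untranslated region, chr16:32631710-32631739, plus strand: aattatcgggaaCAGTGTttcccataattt
A match was found in 4 of the 10 genes, each time in an untranslated region. Of 21877 protein-coding genes, 1.34% had a match anywhere in a transcript, 0.142% in a 5′ and 0.590% in a 3′ untranslated region. Of the other iron genes examined below, Bola3 alone matched, in its 3′ untranslated region. The Steap genes, Trf and Cp had no match to these letters. The match is one of letters in the reference sequence and not a measured binding site, and the mice are of another strain than the reference.

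Between 37414241 and 52497799 fragments were counted per library. Levels are given as CPM, counts scaled to a library total of 1000000 after TMM normalization (factors between 0.992 and 1.00). Levels of different genes are compared only as FPKM, which is CPM per kb of the exonic gene length. Orai1, whose mouse gene collected reads at 7.18, 7.16 and 8.08 CPM in the wild-type libraries, stood at 313, 331 and 316 CPM in those labelled transgenic, in accord with all 6 labels. Lists of cell type markers were measured beside the iron genes. Of 18 choroid plexus markers, 17 were lower in transgenic mice with an adjusted p under 0.05 by edgeR's quasi-likelihood test, and their summed level was 4018 to 6183 CPM in the wild-type and 617 to 898 CPM in the transgenic libraries. Among 54 tested markers of the other cell types, 2 were higher and none lower, the endothelial Cldn5 (0.66 log2, adjusted p = 0.0430, edgeR) and the glutamatergic neuron gene Slc17a7 (0.26 log2, adjusted p = 0.0356, edgeR). With the GC trend removed neither passed (adjusted p = 0.101 and 0.105, edgeR). Without wild-type mouse 1 or 2 or transgenic mouse 2 or 3 neither passed, and Slc17a7 did not pass without wild-type mouse 3, with adjusted p-values up to 0.147 for Cldn5 and 0.162 for Slc17a7 (edgeR).

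All 10 iron genes passed the filter on low counts. In wild-type hippocampi they spanned levels per length from Fth1 at 1768 ± 166 FPKM (mean ± SD, n = 3) to Steap4 at 0.288 ± 0.116 FPKM. Ftl1 followed Fth1 at 120 ± 12.04 FPKM, and Tfrc came next at 16.5 ± 1.21 FPKM. Trf at 3.92 ± 0.69, Cp at 3.31 ± 0.39 and Steap1 at 3.16 ± 0.74 FPKM had ranges that overlapped between neighbours in this order. The place of Trf rests on a level that is understated, as given below, and per kb of the bases it shares with no other gene its 3 wild-type values, 8.86, 10.7 and 12.6, lay above those of Cp and Steap1. Below them stood Steap2 at 2.06 ± 0.11, Steap3 at 1.59 ± 0.24 and Slc40a1 at 1.17 ± 0.15 FPKM, and each neighbouring pair from Steap1 downwards was separated in its 3 mice. The heavy ferritin chain mRNA was thus 14.7 times the light chain mRNA per length, and Steap1 was the highest of its family in wild-type mice.

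**Figure D1:**
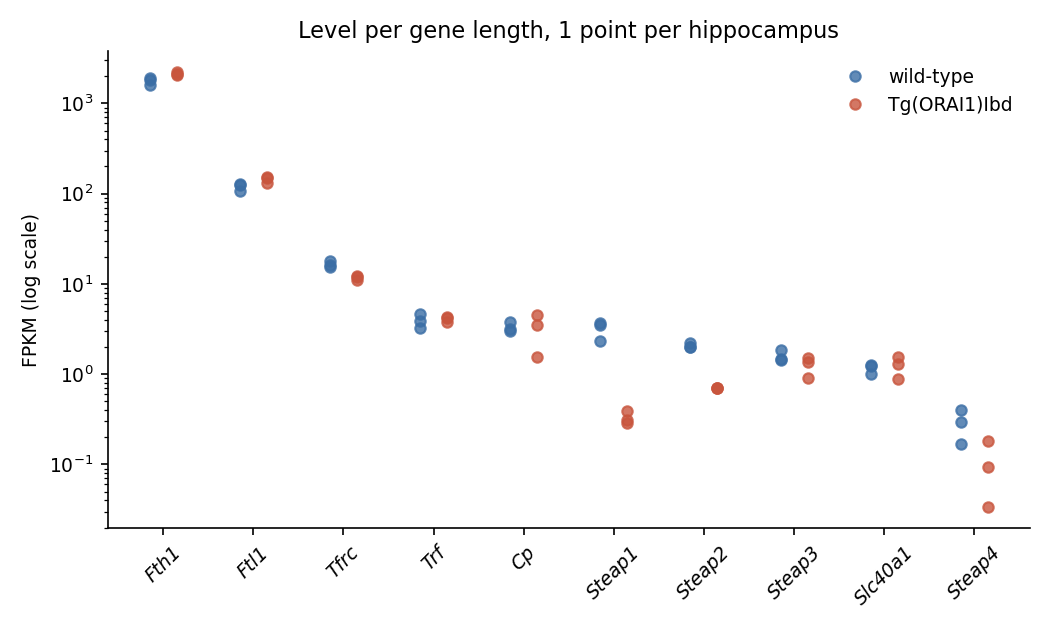
Level per gene length (FPKM, log axis) of the 10 genes, ordered by the wild-type mean, with 1 point per hippocampus. The points of Fth1 lie above those of every other gene, and Steap1 leaves its place beside Cp in the transgenic mice, where it falls below Steap2 and Steap3.

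In the transgenic mice 6 of the 10 genes had a log2 fold change below 0 and 4 above 0, with a median of -0.19 against -0.010 over all 19087 genes tested. Every transgenic mouse was below every wild-type mouse for Steap1, Steap2 and Tfrc, and above every wild-type mouse for Fth1 and Ftl1. For the other 5 genes the groups overlapped. Over all tested genes the groups did not overlap in 17.9% in the lower and 16.9% in the higher direction, and 4.00% were lower and 3.10% higher with an adjusted p under 0.05 by edgeR's quasi-likelihood test. Since the contrast took part in the choice of the genes, nothing is read from these counts. With 3 mice per genotype the smallest p of an exact two-sided permutation test of 1 gene is 0.1.

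**Figure D2:**
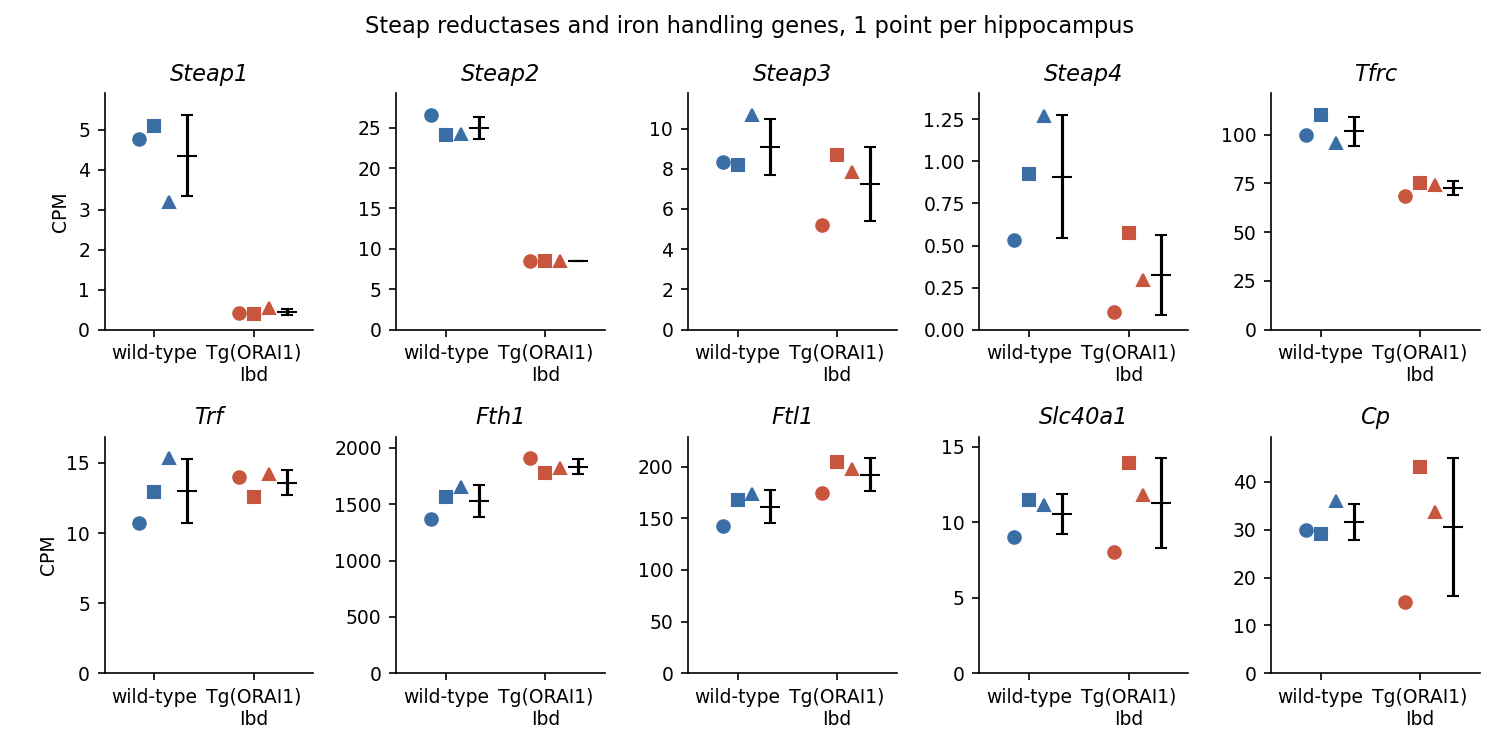
CPM of the 10 genes in each hippocampus, wild-type in blue and Tg(ORAI1)Ibd in red, with circles, squares and triangles for mice 1, 2 and 3 of a genotype, which are different animals, and a bar for the mean ± SD of 3 mice. Each panel has its own linear axis from 0. Steap1, Steap2 and Tfrc sit lower in all 3 transgenic mice, Fth1 and Ftl1 sit higher, and the other 5 panels overlap.

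Within the Steap family, Steap1 and Steap2 were lower in every transgenic mouse, while the values of Steap3 and Steap4 overlapped between genotypes. Steap1 (chr5:5736317-5749326, minus strand), whose product lacks the NADPH-binding domain of the other family members and is thought to work together with them, was counted at 4.78, 5.10 and 3.20 CPM in the wild-type and 0.43, 0.39 and 0.53 CPM in the transgenic mice. Every transgenic value was far below every wild-type value, from 121 to 250 fragments in the wild-type against 15 to 20 in the transgenic libraries. The means were 4.36 ± 1.02 and 0.452 ± 0.073 CPM, a ratio of 9.64, with a log2 fold change of -3.27 (SE 0.24), and leaving out 1 mouse at a time gave -3.44 to -3.12.

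Steap2 (chr5:5664829-5694578, minus strand), a reductase of iron and copper, was counted at 26.6, 24.1 and 24.3 CPM in the wild-type and 8.51, 8.54 and 8.55 CPM in the transgenic mice. The groups were wide apart, and the transgenic mice were almost equal to each other. The log2 fold change was -1.55 (SE 0.066), a 2.93-fold lower mean level, and it stayed between -1.57 and -1.49 with each mouse left out. When the trend of the counts with the GC content of genes was removed it was -1.36.

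Steap3 (chr1:120190757-120272705, minus strand), the endosomal ferrireductase of red cell precursors, was counted at 8.35, 8.20 and 10.7 CPM in the wild-type and 5.19, 8.70 and 7.83 CPM in the transgenic mice. Transgenic mouse 1 was the lowest of all and transgenic mouse 2 lay within the wild-type range. The log2 fold change was -0.33 (SE 0.20), and -0.13 without transgenic mouse 1. Steap4 (chr5:7960457-7982213, plus strand), a metalloreductase known for its induction by inflammatory signals, was the rarest gene of the family, with 0.53, 0.92 and 1.27 CPM in the wild-type and 0.11, 0.58 and 0.29 CPM in the transgenic mice. Its groups overlapped by wild-type mouse 1 and transgenic mouse 2. These levels rest on 28, 39 and 48 fragments in the wild-type and 5, 22 and 11 in the transgenic libraries, and the log2 fold change of -1.49 (SE 0.54) ran from -2.17 without transgenic mouse 2 to -1.03 without transgenic mouse 1.

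The balance within the family therefore differed by genotype as measured per length. The ratio of Steap2 to Steap1 was 0.63, 0.54 and 0.86 in the wild-type and 2.25, 2.46 and 1.81 in the transgenic mice, so Steap1 exceeded Steap2 in every wild-type and in no transgenic hippocampus. The ratio of Steap2 to Steap3 was 1.498, 1.38 and 1.07 in the wild-type against 0.77, 0.46 and 0.51 in the transgenic mice. Here too the order of the genes was the opposite in each group, with Steap3 the most abundant Steap mRNA per length in all 3 transgenic hippocampi.

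The fall in choroid plexus markers ran beside these Steap differences. The most abundant marker, the thyroid hormone carrier gene Ttr, was at 3506, 3890 and 2042 CPM in the wild-type and 383, 179 and 301 CPM in the transgenic mice (-3.45 log2, adjusted p = 0.00472, edgeR). By the same fit the phosphodiesterase gene Enpp2 had a log2 fold change of -2.24 and Kl, the gene of the FGF co-receptor klotho, one of -2.28, and no marker of the list was at 0 in any library. The paper also measured some of these markers, Kl among them, by real-time PCR in hippocampi of other mice. Their mean levels there were lower in the transgenic mice, but none significantly so by Tukey's test. Per 1000 CPM of the summed list, Steap1 measured 0.798, 0.824 and 0.796 CPM in the wild-type mice and 0.477, 0.637 and 0.699 CPM in the transgenic mice. For Steap2 the same quotient was 4.44, 3.90 and 6.04 in the wild-type and 9.48, 13.9 and 11.2 in the transgenic mice. Steap2 was higher relative to this sum in all 3 transgenic mice, also with Ttr, Enpp2 or Kl left out of it. For Steap1 the near-equal quotients of the wild-type mice rested on Ttr, without which they were 1.92, 2.22 and 1.62. The difference between genotypes depended on Enpp2, without which the quotient was 1.13, 1.11 and 1.22 in the wild-type and 0.83, 1.24 and 1.23 in the transgenic mice, so that the groups overlapped. The ratio of the wild-type to the transgenic mean was larger than that of Steap1 in 4 of the 18 markers and larger than that of Steap2 in 17. The part of the choroid plexus in either difference was not tested. These quotients, and those with other marker sums below, were added after the values had been seen.

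**Figure D3:**
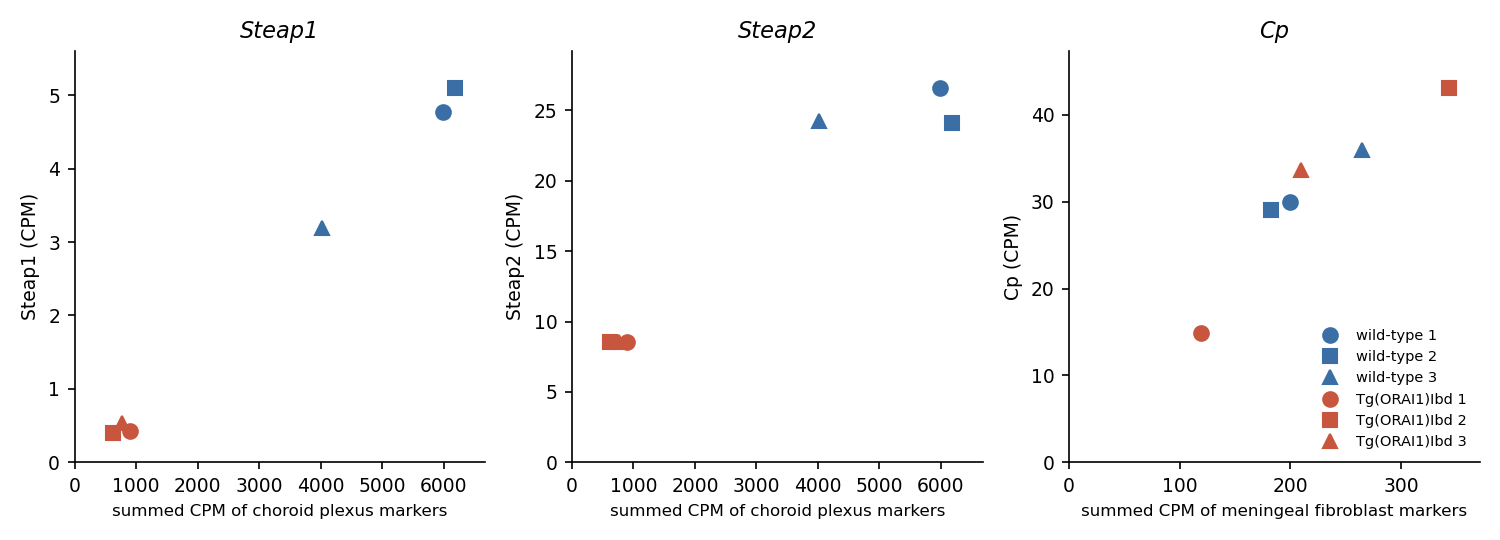
Steap1, Steap2 and Cp (CPM, vertical axes) against the summed CPM of the choroid plexus or meningeal markers in the same library (horizontal axes), wild-type in blue, Tg(ORAI1)Ibd in red, with 1 symbol per mouse. Steap1 rises with the choroid sum among the 3 wild-type mice, closely in proportion only with Ttr in the sum, but not among the transgenic mice. It also ranks the wild-type mice as the summed markers of neurons and red blood cells do. Steap2 stays between 24.1 and 26.6 CPM in the wild-type mice while the choroid sum varies, and Cp follows the meningeal sum in both genotypes.

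Of the genes of iron uptake, the receptor differed and its ligand did not stand apart. Tfrc (chr16:32608920-32632794, plus strand) was counted at 99.6, 110 and 95.6 CPM in the wild-type and 68.3, 75.5 and 74.1 CPM in the transgenic mice. All transgenic values were below all wild-type values, with means of 102 ± 7.51 and 72.7 ± 3.80 CPM. The log2 fold change was -0.49 (SE 0.066), and -0.52 to -0.41 with each mouse left out. Tfrc has a low GC content, 39.8%, and with the GC trend removed from the counts its log2 fold change was -0.31. Over 14235 genes with a mean log2 CPM above 1, split into 10 bins of equal size, the median log2 fold change was -0.17 in the bin of lowest and 0.14 in that of highest GC content.

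Tfrc belongs to brain endothelial cells among others, and the summed level of 9 endothelial markers was 240, 253 and 272 CPM in the wild-type and 226, 323 and 287 CPM in the transgenic mice. These sums overlapped between genotypes. Per 1000 CPM of endothelial markers Tfrc was at 415, 436 and 352 CPM against 302, 234 and 258 CPM, lower in each transgenic mouse.

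Trf (chr9:103204001-103230444, minus strand), the iron carrier of plasma and interstitial fluid, was counted at 10.7, 13.0 and 15.3 CPM in the wild-type and 14.0, 12.6 and 14.2 CPM in the transgenic mice. The transgenic values fell inside the wild-type range, and the log2 fold change was 0.068 (SE 0.13). It ran from -0.04 to 0.21 with each mouse left out. The 10 oligodendrocyte markers summed to 4733, 5605 and 6381 CPM in the wild-type and 6062, 5969 and 6685 CPM in the transgenic mice, and none of them passed the threshold (edgeR, 0 at an unadjusted p under 0.05). Trf ranked the mice of each genotype as this sum did and amounted to 2.27, 2.31 and 2.40 CPM per 1000 CPM of it in the wild-type and 2.31, 2.11 and 2.12 in the transgenic mice. Trf shares 63.5% of its 3320 exonic bases with the gene model Gm20425 on the same strand, which had 0 counts in every library, and fragments that fall on more than 1 gene are not counted under the recorded settings. Its level is therefore understated, since per kb of the 1212 unshared bases it was 10.7 ± 1.89 in the wild-type and 11.2 ± 0.715 in the transgenic mice.

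Both ferritin genes were higher in the transgenic hippocampi by a like amount. Fth1 (chr19:9980598-9985098, plus strand), the heavy chain with ferroxidase activity, was counted at 1373, 1567 and 1654 CPM in the wild-type and 1907, 1773 and 1823 CPM in the transgenic mice. No transgenic value reached down to the wild-type ones, the means were 1531 ± 144 and 1834 ± 67.4 CPM, and the log2 fold change was 0.26 (SE 0.079). Ftl1 (chr7:45457944-45459884, minus strand), the light chain that promotes the formation of the iron core, was counted at 143, 167 and 173 CPM in the wild-type and 174, 204 and 198 CPM in the transgenic mice. Its groups were barely apart, by wild-type mouse 3 and transgenic mouse 1. The log2 fold change was 0.25 (SE 0.088), and 0.16 with the GC trend removed (GC content 58.1%).

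Ftl1 ranked the mice of each genotype as the summed markers of microglia, astrocytes and endothelium did. Fth1 followed these sums in the wild-type but not in the transgenic mice. With so few mice such a match of ranks can arise by chance. Matches were looked for in every pair of the genes and marker lists, so those named for any gene are a description only. Of the 8 microglial markers 7 had a log2 fold change above 0, with a median of 0.32, and none passed the threshold (edgeR, 2 at an unadjusted p under 0.05), with sums of 303 to 419 CPM in the wild-type and 296 to 454 CPM in the transgenic libraries. The part of these cells in the ferritin values was not tested.

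The ratio of the 2 chains per length was 14.7 ± 0.20 in the wild-type and 14.9 ± 1.82 in the transgenic mice, with overlapping values. The ratio of Fth1 to Tfrc, a store to an uptake gene, was 98.4, 102 and 124 in the wild-type mice. In the transgenic mice it was 199, 168 and 176, higher in each mouse. This separation follows from the values of both genes, which were already apart in opposite directions, and is no further result. Ferritin has near copies in the genome. Ftl1-ps1 on chromosome 13 collected 398 to 503 fragments per library, 4 other copies at most 13, and reads with 2 equally good places passed the mapping quality of 3, so a small share of ferritin counts could be split between loci.

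The genes of iron export did not stand apart between genotypes. Slc40a1 (chr1:45908068-45926523, minus strand), encoding ferroportin, the known cellular iron exporter, was counted at 9.02, 11.5 and 11.1 CPM in the wild-type and 8.02, 13.9 and 11.8 CPM in the transgenic mice. Transgenic mouse 1 was the lowest and transgenic mouse 2 the highest of all 6. The log2 fold change was 0.092 (SE 0.20), or -0.07 without transgenic mouse 2 and up to 0.29 with another mouse left out. Cp (chr3:19957054-20009145, plus strand), the copper ferroxidase, was counted at 30.02, 29.1 and 35.9 CPM in the wild-type and 14.9, 43.1 and 33.6 CPM in the transgenic mice. The same 2 transgenic mice marked its extremes. Its log2 fold change was -0.056 (SE 0.33), between -0.37 without transgenic mouse 2 and 0.28 without transgenic mouse 1.

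Transgenic mice 1 and 2 were also the extremes of the meningeal fibroblast markers, which summed to 119, 344 and 210 CPM in transgenic mice 1, 2 and 3 and to 200, 183 and 264 CPM in the wild-type. Of the 7 meningeal markers none passed the threshold (edgeR, 1 at an unadjusted p under 0.05). Cp amounted to 150, 159 and 136 CPM per 1000 CPM of this sum in the wild-type and 125, 125 and 160 in the transgenic mice, a spread much narrower than that of Cp itself among the transgenic mice. Steap4 amounted to 2.68, 5.06 and 4.79 per 1000 CPM in the wild-type and 0.90, 1.68 and 1.40 in the transgenic mice. By this measure its groups were apart, though in CPM they overlapped, and they rest on 5 to 48 fragments. Steap3, like Cp, ranked the mice of both genotypes as the meningeal sum did. Steap4 did not rank the wild-type mice as the meningeal sum did. It ranked the mice of both genotypes as the astrocyte, endothelial and microglial sums did, and quotients with those sums are not given. For Slc40a1 and the microglial markers, whose sums were 303, 322 and 419 CPM in the wild-type and 296, 454 and 439 CPM in the transgenic mice, the quotient was 29.8, 35.6 and 26.5 against 27.1, 30.6 and 26.9. What the amounts of meninges or microglia in the samples contributed was not tested. Red blood cell markers summed to 172 to 244 CPM in the wild-type and 123 to 224 CPM in the transgenic libraries, and none of the 4 tested passed the threshold (edgeR, 0 at an unadjusted p under 0.05).

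The wider iron system was examined with 71 further genes in 9 groups, listed by function and tested as part of the fit over all genes, although this list too was drawn up with earlier results of these data known. Of these, 62 passed the filter, and 3 were higher, 2 lower and 57 not called by edgeR's quasi-likelihood test with adjustment over all 19087 genes. Their median log2 fold change was -0.0065, against -0.010 for all genes, and the shares called, 3 and 2 of 62, lie beside the 3.10% and 4.00% of all genes. The 9 genes not tested for low counts were Ftmt, Hephl1, Hamp, Hamp2, Hfe2, Tmprss6, Erfe, Hp and Ltf, and the hepcidin gene Hamp had 0 or 1 fragment in every library.

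Among the 19 genes of mitochondrial iron and iron-sulfur cluster assembly, 2 were higher. Fdxr, the ferredoxin reductase, was counted at 15.3, 14.2 and 15.5 CPM in the wild-type and 19.4, 18.4 and 19.4 CPM in the transgenic mice (0.35 log2, SE 0.064, adjusted p = 0.0284, edgeR). Glrx5, a glutaredoxin that hands on iron-sulfur clusters, was counted at 27.1, 27.9 and 27.4 against 34.6, 31.3 and 32.3 CPM (0.25 log2, SE 0.056, adjusted p = 0.0423, edgeR). In neither gene did the groups overlap. The most abundant of the uncalled genes were the chaperone gene Hspa9 (-0.07 log2, adjusted p = 0.424, edgeR) and Isca1 (0.04 log2, adjusted p = 0.567, edgeR).

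Of 19 tested genes of heme synthesis, transport and breakdown, Ppox, the enzyme of the penultimate step of heme synthesis, was higher, with 30.6, 30.9 and 33.7 CPM in the wild-type and 36.3, 37.8 and 38.2 CPM in the transgenic mice (0.24 log2, SE 0.057, adjusted p = 0.0487, edgeR). The groups did not overlap. The receptor gene Lrp1 (-0.03 log2) and the heme transporter gene Slc48a1 (0.05 log2) were the most abundant uncalled genes of that group. Of the 3 iron sensing genes, Ireb2, encoding iron regulatory protein 2, was lower, at 89.2, 88.6 and 84.4 against 67.8, 75.2 and 77.5 CPM (-0.25 log2, SE 0.059, adjusted p = 0.0487, edgeR). All transgenic values were below the wild-type ones in each of the 3 genes, as in 17.9% of all genes tested. For Aco1 the lowest wild-type value was 29.93 and the highest transgenic value 29.86 CPM. Ireb2 alone passed the threshold. Aco1, encoding iron regulatory protein 1, was at 30.9 ± 0.970 and 29.6 ± 0.342 CPM (adjusted p = 0.484, edgeR), and Fbxl5, which targets iron regulatory proteins for degradation, at 99.2 ± 8.27 and 88.3 ± 1.96 CPM (adjusted p = 0.136, edgeR). Under the alternative settings with every mouse kept, the log2 fold change of Fbxl5 ran from -0.17 to -0.016.

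None of the 5 calls was independent of the settings. With the GC trend removed no gene of the 62 passed the threshold by edgeR, and Ireb2 moved to -0.06 log2. At an unadjusted p under 0.05 by edgeR, 7 were then higher and 4 lower, against 8 and 6 before. Over the alternative settings with every mouse kept, the lowest log2 fold change was 0.24 for Fdxr, 0.21 for Glrx5 and 0.20 for Ppox. Leaving out wild-type mouse 1 or 2 or transgenic mouse 2 or 3 also left 0 calls, leaving out wild-type mouse 3 left 2 (Fdxr and Ppox), and leaving out transgenic mouse 1 left 3, Fdxr and Ppox among them.

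In the other groups no gene passed the threshold by edgeR with the filter on low counts or by limma-voom. The 3 reductases outside the Steap family were Cybrd1 (5.83 ± 3.16 and 5.59 ± 2.04 CPM), Cyb561a3 (6.38 ± 0.790 and 6.72 ± 0.304 CPM) and Frrs1, the 1 reductase at an unadjusted p under 0.05 (adjusted p = 0.138, edgeR). The 8 genes of import and receptor trafficking included the ferrous iron transporter gene Slc11a2 at 52.4 ± 4.11 and 51.1 ± 5.36 CPM and Snx3, a sorting nexin of transferrin receptor recycling, at 99.5 ± 3.80 and 108 ± 8.07 CPM, and 0 were at an unadjusted p under 0.05. The iron chaperone genes Pcbp1 (0.01 log2) and Pcbp2 (0.07 log2) of the storage group and the ferroxidase gene Heph (-0.19 log2, adjusted p = 0.279, edgeR) did not pass either, and in these groups 0 genes were at an unadjusted p under 0.05. In hepcidin control Neo1 (-0.01 log2) and Bmp6 (-0.38 log2, adjusted p = 0.416, edgeR) were the most abundant. Bmp6 ran from -0.72 log2 without transgenic mouse 2 to -0.095 without transgenic mouse 1. In this group Hfe, at 7.02 ± 0.438 and 4.45 ± 1.02 CPM, was the only gene at an unadjusted p under 0.05, with an adjusted p of 0.0601 by edgeR. It was called by DESeq2's Wald test (adjusted p = 0.00941) and by edgeR without the filter (adjusted p = 0.0256). In the siderophore group Slc22a17 was at 599 ± 44.5 and 561 ± 25.5 CPM and Lcn2 at 0.262 ± 0.166 and 0.239 ± 0.122 CPM, with 0 of the 2 at an unadjusted p under 0.05.

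**Figure D4:**
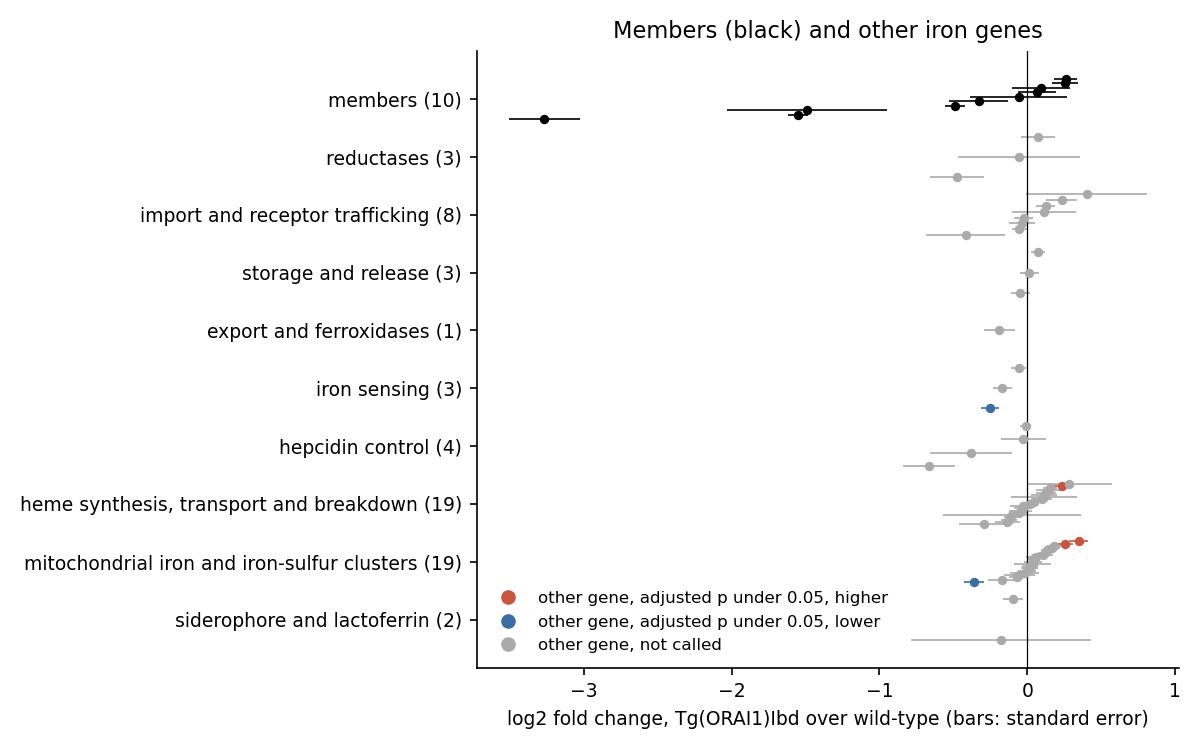
Log2 fold change, Tg(ORAI1)Ibd over wild-type, of the 10 genes (members, black) and of 62 other iron genes by group, with the number of genes in parentheses and bars for the standard error. Red and blue mark the 3 higher and 2 lower genes called by edgeR, with Fdxr at 0.35 and Ireb2 at -0.25, while Steap1 stands at -3.27, Steap2 at -1.55 and Steap4 at -1.49.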

How the data were processed

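Adapter and quality trimming (Trimmomatic), alignment to mm10 (STAR) and counting (featureCounts 1.5.0-p1) were done by the authors, who deposited unnormalized counts of fragments per gene for 54838 genes of the Ensembl 95 annotation, with exonic lengths. The recorded command counted read pairs, strand setting 2, mapping quality of at least 3 and primary alignments. Symbols (54809 genes), GC content and transcripts came from GENCODE M21. All 6 count columns were used, grouped by the labels, and they summed to 52497799, 42154842 and 37710188 in the wild-type and 47027279, 38094114 and 37414241 in the transgenic libraries.

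Genes were kept by filterByExpr (minimum count 10), libraries scaled by TMM, and genotypes compared by edgeR 4.0.16 (R 4.3.3) with the quasi-likelihood test and Benjamini-Hochberg adjustment over 19087 genes at 0.05. The libraries are from separate mice, and p-values measure the spread between them. The 10 genes, the lists of other iron genes and the marker lists were chosen with earlier results of these data known. The text names all 10 genes, in each other list the called genes (at most 6) and the 2 uncalled genes with the highest mean CPM, for the 2 of the 10 with the largest absolute fold change the 5 genes most alike, and at most 3 markers per cell type; Frrs1, Hfe, Fbxl5, Bola3, Slc17a7, Cldn5 and the neighbours of Steap genes were named after their values were seen. One gene that the rule covers is not reported here. The paper's test, NOISeq, was not repeated. Alternatives were DESeq2's size factors, total counts and the upper quartile, DESeq2 1.42.0, limma-voom (limma 3.58.1), no filter, at least 10 counts in every library, the replicate number as a block, offsets for GC content (loess, span 0.5), each mouse left out, and the level of Trf without shared bases, which was added after seeing the data. The fits were tested on simulated counts. Tables were made with Python 3.11.15 (pandas 2.3.3) and figures with matplotlib 3.10.9.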

Additional observations from a re-analysis of the deposited data

How the results depend on the processing

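Of 685 values of 43 single genes recomputed under other settings none of a called gene changed sign, and 615 kept their direction and side of the threshold or moved by less than the spread of the mice. The 3 higher iron genes became 2 with total counts and 2 with the upper quartile, where Ppox lost its call, 1 with the replicate number as a block, 0 with GC offsets and 0 with GC offsets and the block, and 0 to 2 with each mouse left out. The 2 lower iron genes became 3 with DESeq2's Wald test and 3 without a filter (Hfe added), 1 with limma-voom, 0 with the block, 0 with GC offsets, 0 with both, and 0 to 1 with each mouse left out. At an unadjusted p under 0.05, edgeR gave 7 higher and 5 lower iron genes with the block, 7 and 4 with GC offsets, and 5 and 7 with both. The 2 called markers outside the choroid plexus became 4 with DESeq2's Wald test, 4 without a filter, 1 with the block, 0 with GC offsets, 0 with both, and 0 to 4 with each mouse left out, while 15 to 17 choroid plexus markers were lower in every setting. The median of the 10 genes ran from -0.42 to -0.042 with each mouse left out and was -0.26 with the block. Without the shared bases the wild-type level of Trf was 10.7 in place of 3.92 per kb. Over all genes, GC offsets gave 168 higher and 244 lower genes and the block 263 and 475, in place of 591 and 764. The causes were not tested. Same-numbered mice of the 2 genotypes are different animals, and their deviations correlated between -0.357 and 0.399, so the numbers were not taken to pair them. Counts of 5 to 48 fragments limit Steap4, and 15 to 20 limit Steap1 in transgenic mice.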

Other observations

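Steap1 and Steap2 are neighbours on chromosome 5, 41738 bases apart on the same strand, and Steap4 lies 2211130 bases beyond Steap1 (GRCm38). The gene next to Steap2 on its other side, Cfap69, which encodes a protein of motile cilia and flagella, lies 589 bases away and was counted at 19.7, 19.1 and 16.7 CPM in the wild-type and 13.0, 14.0 and 13.7 CPM in the transgenic mice. It was lower in each transgenic mouse (-0.45 log2, SE 0.081, adjusted p = 0.0279, edgeR), but did not pass with the GC trend removed (-0.28 log2, adjusted p = 0.0999, edgeR) or without wild-type mouse 1 or 2 or transgenic mouse 2 or 3 (adjusted p up to 0.127, edgeR). Zfp804b, between Steap1 and Steap4, had a log2 fold change of -0.62 (adjusted p = 0.153, edgeR), and Sri, 63864 bases from Steap4, one of -0.11 (adjusted p = 0.290, edgeR).

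Genes whose log2 CPM went most alike with Steap1 over the 6 libraries were 1500015O10Rik (Pearson r = 0.999), Fzd4, Rdh5, Aph1c and Gm37008. They differed widely in size of change, from 25.1, 28.5 and 19.4 CPM in the wild-type against 3.58, 3.09 and 3.85 CPM for 1500015O10Rik to 23.0, 23.4 and 22.1 against 18.9, 18.6 and 19.2 CPM for Aph1c. Those most like Steap2 were Lmntd2 (Pearson r = 0.999), Bbs7, Col8a2, Fap and Dolk. The collagen gene Col8a2 was at 20.2, 19.5 and 17.6 CPM against 4.95, 4.38 and 4.27 CPM, and the peptidase gene Fap at 4.32, 4.00 and 4.23 against 0.99, 0.92 and 1.12 CPM. The 6 points of each such relation form 1 cluster per genotype, so r mostly reflects the 2 groups and is given as a description.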
